A study of Chlamydomonas reinhardtii with 2 samples.

Results

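The carbon-concentrating mechanism of Chlamydomonas reinhardtii, a unicellular green alga, was represented by 41 of 17147 loci in the deposited table. They were chosen by their symbols alone, namely those beginning with LCI, CCP, CAH, CIA, HLA3, LCR, NAR1 or CAG. No symbol in the table began with CIA or HLA3. The 41 loci were 8 carbonic anhydrase genes, 10 genes for transporters and carriers, 21 further LCI genes (for low-CO2 inducible), the regulator LCR1, and CCPR1. CCPR1 entered through its first letters but is described as cytochrome c peroxidase. It is counted below only where all members are counted, together or divided by their described regulation.

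Both libraries were made from total RNA of the wild-type strain 21gr (CC-1690), kept at 25 °C under constant illumination at 70 µmol per square metre per second with agitation at 200 rpm. The replete culture spent 24 h in acetate medium with 1.1 mM phosphate, and the deprived culture spent 24 h in the same medium with no phosphate added (0 mM). Acetate, an organic carbon source, was thus present in both, and the CO2 supply is not given in the labels. Each condition had 1 library, so no value below has a replicate error, no test was possible, and every difference is between these 2 libraries.

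When CO2 is scarce, this alga pumps inorganic carbon inwards as bicarbonate and releases CO2 around Rubisco, which is packed in a chloroplast body called the pyrenoid. Channels and pumps in the plasma membrane and chloroplast envelope move bicarbonate. Carbonic anhydrases, which interconvert CO2 and bicarbonate, work in the periplasm, stroma and thylakoid lumen, and LCIB and LCIC form a complex that limits CO2 leakage from the chloroplast. The zinc-finger regulator CCM1, also called CIA5, and the Myb factor LCR1 control many of these genes.

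Levels are given as RPKM, read numbers divided by transcript length and by library size, with a total of 901012 over all loci for the replete and 855498 for the deprived library. Reads per gene were not used here, and depth was inferred from a small fixed amount that the values appear to contain. On that reading, 1 RPKM at a length of 1000 bases rests on about 10.4 replete and 12.3 deprived reads. Intervals of a ratio given below come from the deprived library's share of a gene's reads at that length, by the exact Clopper-Pearson method at 95%. They cover counting error only, and a longer transcript would narrow them. The log2 fold compares the deprived with the replete value, each raised by 1 RPKM, so that differences of low-level genes come out smaller than their plain ratios.

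The members held 7244 RPKM in all with phosphate and 9147 RPKM without it, which is 0.804% and 1.07% of the library sums. Most of this was CAH1, with 57.1% of the members' sum under replete and 60.2% under deprived conditions. Without CAH1 the members' sums were 3111 and 3639 RPKM. The median member was at 28.0 RPKM with phosphate and 42.7 RPKM without it, above the medians of 5.65 and 6.54 RPKM over all genes with a mean of at least 1 RPKM. Levels spanned a wide range, from NAR1.6 at 0.0501 RPKM to CAH1 at 4134 RPKM in the replete library.

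**Figure D1:**
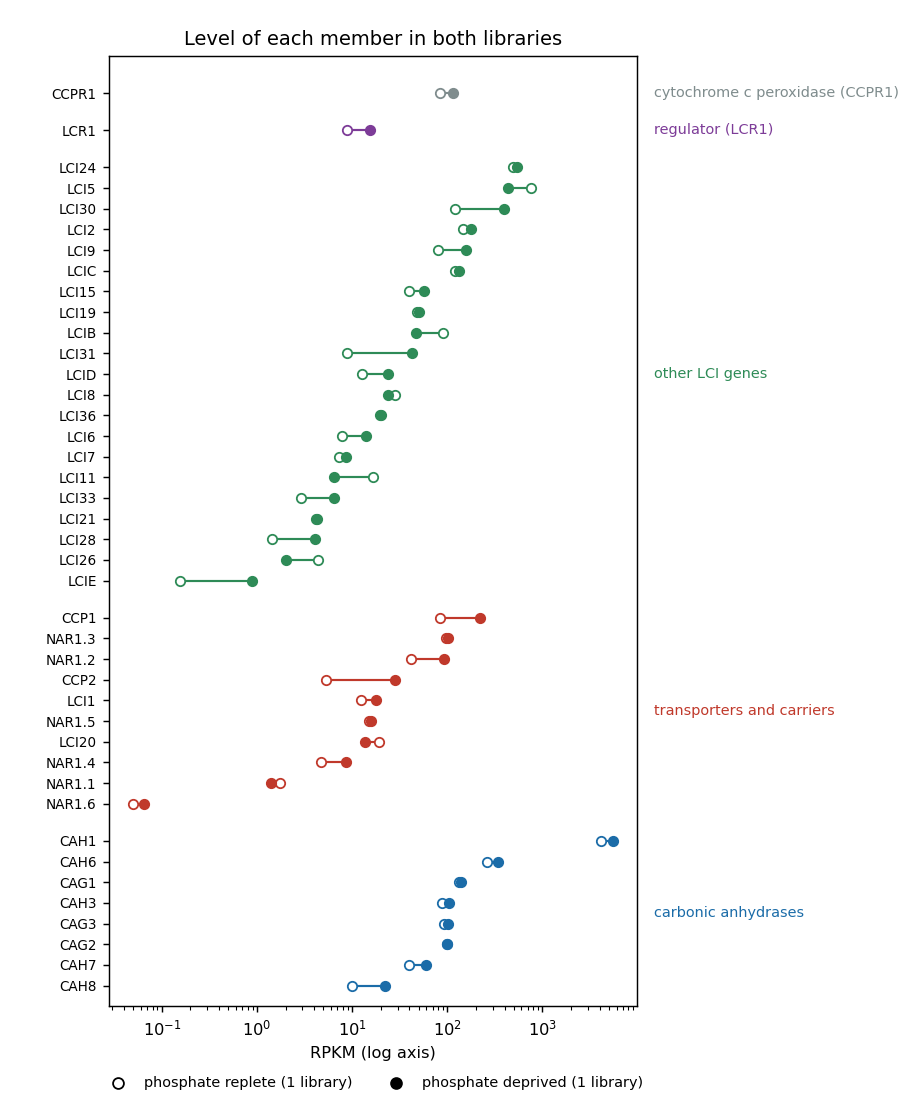
RPKM (log axis) of each of the 41 members in the replete library (open circles) and the deprived library (filled circles), grouped by role, 1 library per condition. CAH1 stands far above the others at 4134 and 5508 RPKM, and the widest gaps among members with at least 1 RPKM on average are those of CCP2, LCI31 and LCI30.

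Of the 41 members, 39 had a mean of at least 1 RPKM over both libraries and entered the counts, while NAR1.6 and LCIE stayed below. Among these 39, 7 were higher by 2-fold or more in the deprived library, where 5.59% of all 13855 genes past the same minimum were. Lower by 2-fold or more was 1 member, where 1.64% of all genes were. The 7 higher members were CCP2, LCI31, LCI30, CCP1, NAR1.2, CAH8 and LCI28, and the lower one was LCI11. CCP2 and LCI31 made 2 members higher by 4-fold or more, where 1.03% of all genes were, and 0 members were lower by that much. Folds above 0 were found for 30 of 39 members, against 62.0% of all genes. The median log2 fold was 0.28 for the members (0.25 without CCPR1) and 0.14 for all genes.

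The split between higher and lower members depended on how the libraries were scaled. It was 7 to 1 as deposited. It was 4 to 3 when the libraries were brought to a shared median (median scaling), to a shared trimmed mean of the gene ratios (trimmed-mean scaling) or to a shared distribution (quantile scaling), and 8 to 1 when they were brought to one total (sum scaling). The median fold of all genes shifted by -0.17, -0.15, -0.18 and 0.06 under these, in that order. In the same order, 3.67%, 3.77%, 3.69% and 6.47% of all genes were higher by 2-fold or more. Lower by 2-fold or more were 3.14%, 2.91%, 2.85% and 1.33% of all genes. CCP2, LCI31, LCI30 and CCP1 were higher by 2-fold or more under each of the 10 alternatives tried. Among these, the changes of the minimum level and the removal of CCPR1 could not alter their folds. The count at 4-fold was less steady. LCI31 was inside 4-fold under median scaling (log2 fold 1.94) and trimmed-mean scaling (1.97). With 5 RPKM added to each value (a pseudocount of 5 RPKM), LCI31 (1.78) and CCP2 (1.70) were both inside 4-fold.

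**Figure D2:**
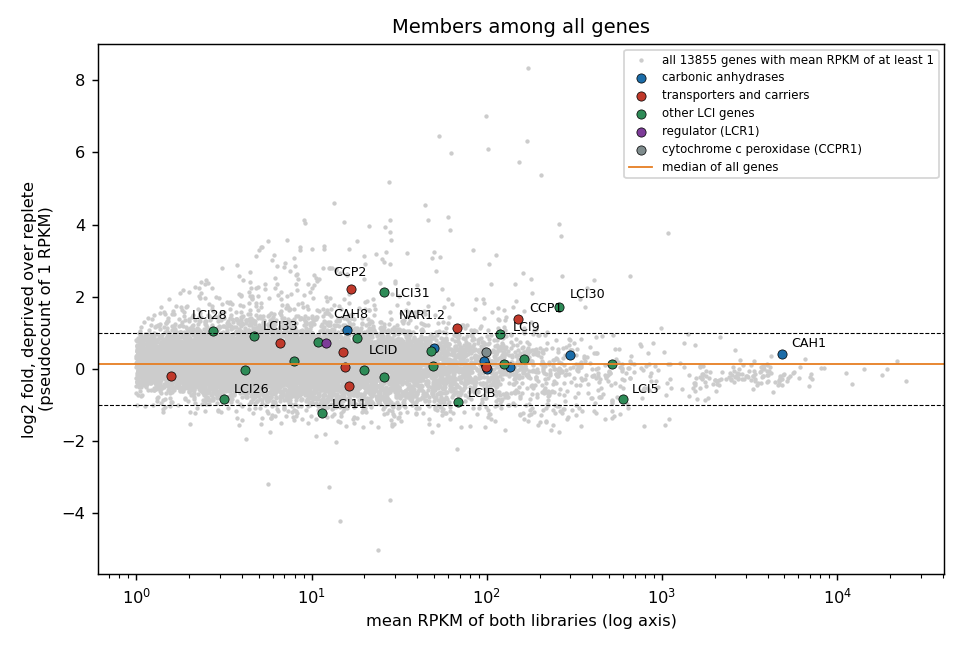
Log2 fold of the deprived over the replete library against mean RPKM (log axis) for 13855 genes (grey) and 39 members (coloured by role), with dashed lines at 2-fold and an orange line at the median of all genes, 0.14. CCP2 and LCI31 lie above 2 on the log2 scale, and LCI11 is the one member under the lower dashed line.

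Among the transporters and carriers, 3 of the 9 genes past the minimum were higher by 2-fold or more and 0 lower, beside 5.59% and 1.64% of all genes. Their median log2 fold was 0.47, beside 0.14 for all genes. It was 0.27 under median scaling, 0.30 under trimmed-mean scaling and 0.27 with no filter. All genes had medians of -0.03, -0.01 and 0.11 in these settings. The sum over all 10 was 281 RPKM with phosphate and 499 RPKM without it. CCP1 and CCP2 code for near-identical envelope carrier proteins related to mitochondrial carriers. CCP2 was at 5.30 RPKM with phosphate and 28.4 RPKM without it, a log2 fold of 2.22 that was equalled or passed by 0.837% of all genes. The ratio of the RPKM values was 5.37, with a counting interval of 4.22 to 7.29. CCP1, the more abundant copy, had 83.7 and 219 RPKM, a log2 fold of 1.38. CCP1 exceeded CCP2 by 15.8 times in the replete and 7.70 times in the deprived library, a smaller gap without phosphate. How reads that match both copies were assigned is not given in the sources used here. Their separate values are uncertain to that extent.

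The NAR1 genes code for transporters of the formate and nitrite family, of which NAR1.2, also known as LCIA, is the chloroplast envelope channel linked to bicarbonate. NAR1.2 was at 41.9 RPKM with phosphate and 92.5 RPKM without it, a log2 fold of 1.13 that 4.07% of all genes reached. Its log2 fold was 0.92 under median scaling, 0.95 under trimmed-mean scaling and 0.99 under quantile scaling, just inside 2-fold. NAR1.3, the most abundant of the family, had 97.3 and 101.9 RPKM, so that its excess over NAR1.2 went from 2.33 times to 1.10 times. NAR1.5 was also close in both libraries, with 15.2 and 15.9 RPKM. NAR1.4 had 4.75 and 8.53 RPKM (log2 fold 0.73), and the ratio of 1.80 had a counting interval of 1.33 to 2.56. NAR1.1, described as the high-affinity nitrite transporter, had 1.77 and 1.40 RPKM, with an interval of the ratio from 0.391 to 1.56 that includes 1. NAR1.2 was the only NAR1 gene past 2-fold as deposited, but not under median, trimmed-mean or quantile scaling. The counting interval of the NAR1.4 ratio contained that of the NAR1.2 ratio, so these ratios were not told apart. The deposited annotation ties NAR1.2 to CO2 limitation, and whether its fold is related to that was not tested.

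NAR1.6 was listed at 0.0501 and 0.0652 RPKM. These values have the pattern of a gene with no read in the replete and 1 read in the deprived library, under the limit that 3 counts set in each, and no fold is given for it.

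LCI1, a plasma membrane protein for inorganic carbon uptake that LCR1 controls, was at 12.5 RPKM with phosphate and 17.6 RPKM without it. Its log2 fold of 0.47 was the median of the transporters. LCI20, described as a 2-oxoglutarate/malate translocator, went the other way with 19.1 and 13.6 RPKM (log2 fold -0.46), and 90.3% of all genes had a fold at least as high.

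All 8 carbonic anhydrase genes had a log2 fold above 0 in the deposited values, with 1 higher by 2-fold or more, 0 lower and a median of 0.31. Of all genes, 62.0% lay above 0, 5.59% were higher and 1.64% lower by 2-fold or more. The median of the carbonic anhydrases was 0.10 under median scaling and 0.13 under trimmed-mean scaling, beside -0.03 and -0.01 for all genes. The direction above 0 flipped for the 3 gamma-type genes CAG1, CAG2 and CAG3 under median scaling and under trimmed-mean scaling, and for CAG1 and CAG2 under quantile scaling. The 5 CAH genes kept folds above 0 under every scaling tried, but CAH3 was close to 0 under median (0.02) and trimmed-mean scaling (0.05). CAH1, the periplasmic enzyme and a classic low-CO2 gene, was at 4134 RPKM with phosphate and 5508 RPKM without it. It ranked 42nd of all loci by RPKM in the replete and 18th in the deprived library, and made up 85.1% and 86.4% of all carbonic anhydrase RPKM. Its log2 fold of 0.41 was small beside its level, and 28.8% of all genes had a fold at least as high.

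CAH8, a beta-type enzyme, showed the highest fold of the carbonic anhydrases, from the lowest level. It was at 9.96 RPKM with phosphate and 22.1 RPKM without it, a log2 fold of 1.07, with a ratio of 2.22 and a counting interval of 1.81 to 2.78. Its log2 fold was 0.87 under median scaling, 0.90 under trimmed-mean scaling, 0.91 under quantile scaling and 0.86 with a pseudocount of 5 RPKM, all within 2-fold. CAH7 followed with 39.8 and 60.1 RPKM (log2 fold 0.58). CAH6, described in the table as a stromal enzyme, had 259 and 338 RPKM (0.38). CAH3, the thylakoid lumen enzyme that works beside photosystem II, had 88.8 and 104.5 RPKM (0.23). Within the CAH genes the fold was thus higher in the less abundant CAH8 and CAH7 than in CAH1, CAH6 and CAH3.

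The CAG genes code for gamma-type carbonic anhydrases that are subunits of mitochondrial complex I. CAG1 was at 133.8 RPKM with phosphate and 138.4 RPKM without it. CAG2 had 99.6 and 100.4 RPKM, and CAG3 had 92.6 and 102.3 RPKM. Their log2 folds of 0.05, 0.01 and 0.14 all lay at or under the median of all genes.

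The 21 further LCI genes spread in both directions. Of the 20 past the minimum, 3 were higher by 2-fold or more and 1 lower, and 13 lay above 0 and 7 below. The shares of all genes were 5.59%, 1.64% and 62.0% above 0, and the median log2 fold of 0.19 was near the 0.14 of all genes. Under median scaling it was -0.01, beside -0.03 for all genes. Folds ran from -1.23 for LCI11 to 2.14 for LCI31.

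**Figure D3:**
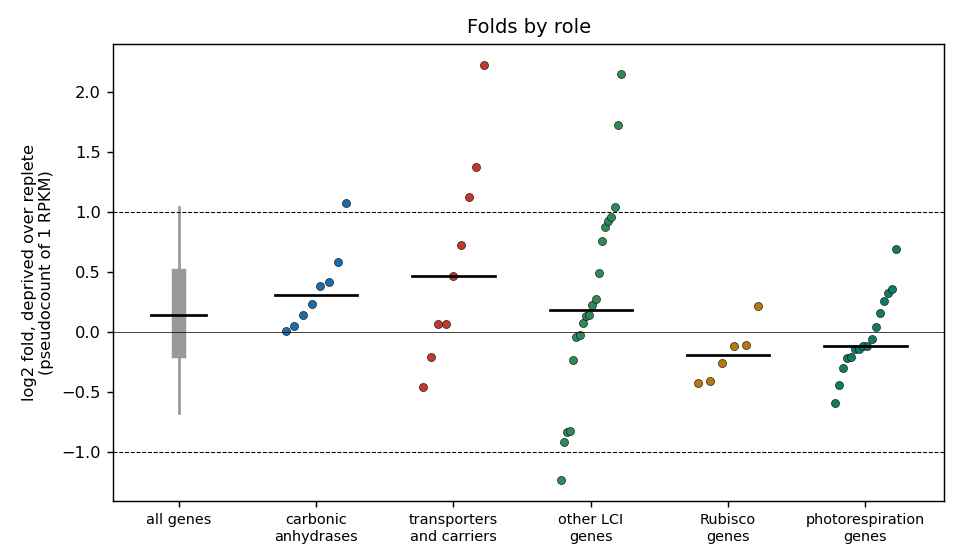
Log2 fold of the deprived over the replete library by role, each point 1 gene and each black bar a median, beside the median, the 25 to 75 percentile box and the 5 to 95 percentile line of all genes. Of the groups drawn, the transporters have the highest median (0.47), the other LCI genes reach from -1.23 to 2.14, and the medians of the Rubisco and photorespiration genes lie below 0.

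LCI31, a gene described only as low-CO2 inducible and CCM1 regulated, was at 8.87 RPKM with phosphate and 42.7 RPKM without it. Its log2 fold was 2.14, and the ratio of 4.81 had a counting interval of 3.99 to 6.07. LCI30 had 119 and 395 RPKM, a log2 fold of 1.72 that 1.43% of all genes reached. LCI30 was thus the most abundant member past 2-fold, and its description names a possible ribosome association rather than carbon uptake. LCI28, described as a low-CO2 aldose reductase, had 1.45 and 4.05 RPKM (log2 fold 1.04). At so low a level its ratio of 2.79 had a wide counting interval, from 1.72 to 5.69. Its log2 fold was 0.88 under median scaling, 0.90 under trimmed-mean scaling, 0.83 under quantile scaling and 0.49 with a pseudocount of 5 RPKM.

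Nearest to 2-fold from the inside on the higher side were LCI9 and LCI33. LCI9, a starch-binding protein of the pyrenoid, was at 80.3 RPKM with phosphate and 157 RPKM without it (log2 fold 0.96), and passed 2-fold under sum scaling (1.03). LCI33 had 2.91 and 6.43 RPKM (0.93) and passed 2-fold with a pseudocount of 0.1 RPKM (1.12). The locus Cre02.g130800, which the table describes as a paralog of LCI9, is no member but lay on the same side, with 7.44 and 20.1 RPKM (1.32). LCI6, an LCR1 target of unknown function, had 7.84 and 13.9 RPKM (0.76).

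On the lower side, LCI11 was past 2-fold, and LCIB, LCI5 and LCI26 were the nearest inside it. LCI11, a bestrophin-like membrane protein with related copies in the genome, was at 16.5 RPKM with phosphate and 6.48 RPKM without it, a log2 fold of -1.23 and a ratio of 0.392 with a counting interval of 0.300 to 0.499. With a pseudocount of 5 RPKM its log2 fold was -0.91, within 2-fold. LCI5, also called EPYC1, is the linker protein that gathers Rubisco into the pyrenoid. It had 763 and 430 RPKM (log2 fold -0.83), the highest level of any member other than CAH1 in the replete library. Its log2 fold was -1.04 under median scaling and -1.01 under trimmed-mean scaling, past 2-fold in both, and -0.66 under quantile scaling. LCI5 and LCI9, both placed at the pyrenoid, thus differed in direction.

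LCIB, LCIC, LCID and LCIE code for a family of related chloroplast proteins. LCIB was at 90.2 RPKM with phosphate and 47.4 RPKM without it (log2 fold -0.91), and 97.8% of all genes had a fold at least as high. It was lower by 2-fold or more under median scaling (-1.12), trimmed-mean scaling (-1.09) and quantile scaling (-1.03). LCIC, its partner in the LCIB/LCIC complex, had 119 and 132 RPKM (0.14), about the fold of the median gene. LCIC therefore exceeded LCIB by 1.32 times in the replete and 2.77 times in the deprived library.

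LCID was at 12.6 RPKM with phosphate and 23.9 RPKM without it (log2 fold 0.87). LCIE was listed at 0.157 and 0.886 RPKM, and its replete value has the pattern of a gene without reads. On that reading about 11 reads were counted in the deprived library. The deprived value of LCIE without the fixed amount was 3.18 times the replete limit of 3 counts. That value leaves out the counting error of the 11 reads, and the counting interval of the LCIE ratio had a lower end of 2.18. LCID and LCIE are related in sequence, and how reads that match both were assigned is not given.

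The remaining LCI genes lay within 2-fold. LCI24, a predicted membrane protein, was abundant in both libraries with 492 and 540 RPKM (log2 fold 0.13). LCI2 had 147 and 179 RPKM (0.28), LCI15 had 39.8 and 56.5 RPKM (0.49), and LCI19, described as gamma hydroxybutyrate dehydrogenase, had 48.2 and 50.9 RPKM (0.08). All 4 were slightly higher in the deprived library, LCI24 and LCI19 by less than the median fold of all genes. LCI8, described as N-acetylglutamate synthase of arginine synthesis, had 28.0 and 23.7 RPKM (-0.23). LCI36 had 20.3 and 19.8 RPKM (-0.04), LCI21 had 4.23 and 4.15 RPKM (-0.02), and LCI7, described as a flagellar R53.5-related protein, had 7.20 and 8.61 RPKM (0.23). For LCI19, LCI36, LCI21 and LCI7 the counting interval of the ratio includes 1. LCI26, a U-box protein gene, had 4.35 and 2.02 RPKM (-0.82), and its ratio of 0.465 had an interval of 0.273 to 0.733. It was lower by 2-fold or more with a pseudocount of 0.1 RPKM (-1.07) and under quantile scaling (-1.04).

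LCI15 is 1 of 3 related genes in a tandem row. The flanking copies, both outside the members, were Cre16.g685000 at 71.3 RPKM with phosphate and 45.5 RPKM without it (log2 fold -0.64) and Cre16.g685100 with 5.66 and 9.11 RPKM (0.60). The copies thus differed in direction, and how shared reads were split among them is not given in the sources used here.

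The regulators LCR1 and CCM1 lay below the level of the median member, 28.0 RPKM with phosphate and 42.7 RPKM without it. Beside the medians of all genes past the minimum, 5.65 and 6.54 RPKM, LCR1 was higher in both libraries and CCM1 in the replete one only. LCR1, the Myb factor that controls CAH1, LCI1 and LCI6, was at 8.79 RPKM with phosphate and 15.3 RPKM without it (log2 fold 0.73), a ratio of 1.74 with a counting interval of 1.39 to 2.24. Its described targets CAH1, LCI1 and LCI6 had log2 folds of 0.41, 0.47 and 0.76, and none of the 4 was 2-fold different. CCM1, the master regulator, carries a symbol outside the member rule and had 6.04 and 4.92 RPKM (-0.25). CCPR1 had 83.3 and 115.7 RPKM (0.47).

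The deposited descriptions name 21 of the 41 members as regulated by CCM1. All 21 passed the minimum, with 3 higher by 2-fold or more, 1 lower and a median log2 fold of 0.14, the same as the median of all genes. Above 0 lay 61.9% of them, close to the 62.0% of all genes, of which 5.59% were higher and 1.64% lower by 2-fold or more. Of the other 20 members, CCPR1 among them, 18 passed, with 4 higher by 2-fold or more, 0 lower and a median of 0.43. Outside the members, 9 further genes are described as regulated by CCM1, LHCSR1, ELI4 and PMA2 among them. Of these 9, 2 were higher by 2-fold or more and 0 lower, with a median of 0.36. Over all 30 genes so described, 5 were higher and 1 lower by 2-fold or more. Their median was 0.28, and 66.7% lay above 0. The CCM1-regulated members held both extremes in the LCI group, LCI31 and LCI11. As deposited, 8 of them lay below 0, against 1 of the other 18 members past the minimum. This contrast depended on the scaling. Under median and trimmed-mean scaling CAG1, CAG2, CAG3, NAR1.3 and NAR1.5 of the other members also fell below 0. So did LCI24, LCIC and LCI19 of the CCM1-regulated members. The grouping by CCM1 comes from the table's text and was added after the values were seen.

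**Figure D4:**
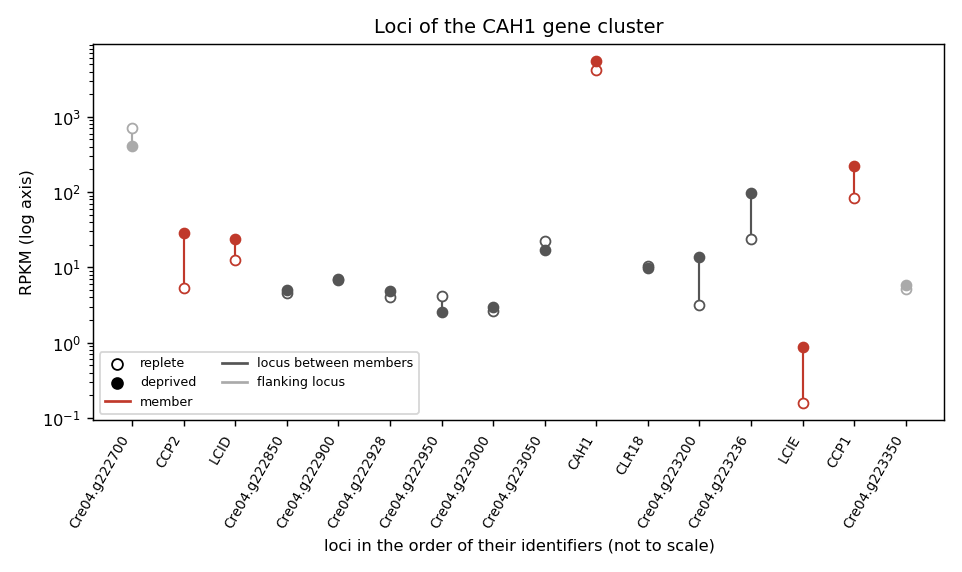
RPKM (log axis) in the replete (open) and deprived (filled) library for the loci numbered from Cre04.g222700 to Cre04.g223350, in the order of their identifiers and not to scale, with members in red. CCP2, LCID, CAH1, LCIE and CCP1 are all higher in the deprived library, and so are Cre04.g223200 and Cre04.g223236 next to LCIE.

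A cluster of inversely repeated CO2-responsive genes holds 5 members, CCP2, LCID, CAH1, LCIE and CCP1. The table's descriptions place CCP2 head to head with LCID at one end and CCP1 head to head with LCIE at the other. All 5 were higher in the deprived library in the deposited values, where 62.0% of all genes past the minimum lay above 0. For the 4 past the minimum the log2 folds of 2.22, 0.87, 0.41 and 1.38 stayed above 0 under every scaling tried. CCP2 was below its head-to-head partner LCID with phosphate (5.30 against 12.6 RPKM) and above it without phosphate (28.4 against 23.9 RPKM). CCP1 was far above LCIE in both libraries.

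The 9 loci numbered between these members were mixed. Cre04.g223236 was at 24.1 RPKM with phosphate and 96.0 RPKM without it (log2 fold 1.95), and Cre04.g223200 had 3.17 and 13.6 RPKM (1.81). Both are numbered just before LCIE and carry no annotation in the table. The other 7 lay within 2-fold, from -0.54 for Cre04.g222950 to 0.20 for Cre04.g222928. Of the 9, 6 lay above 0 (66.7%) and 3 below, near the 62.0% of all genes above 0. The locus numbered before CCP2, Cre04.g222700, described as an elongation factor EF-3 gene, had 703 and 409 RPKM (-0.78), and the one after CCP1, Cre04.g223350, had 5.13 and 5.86 RPKM (0.16). The higher values were therefore found at some loci of the stretch and not at others.

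Other genes of carbon fixation and CO2 response were taken from a fixed list of symbols, which matched 29 loci. Of these, CAS1 and SAS6 are described as a sterol enzyme and a basal body protein and were set aside. Among the other 27, 0 were higher by 2-fold or more and 2 were lower, beside 5.59% and 1.64% of all genes. Below 0 lay 18, and the median log2 fold was -0.12. The 6 genes for Rubisco and its activation or modification had a median of -0.19, and the 16 photorespiration genes, which recycle the product of Rubisco's oxygenase reaction, had a median of -0.11. Both medians stayed below 0 under every scaling tried.

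RBCS2A, a Rubisco small subunit gene, was at 11562 RPKM with phosphate and 10749 RPKM without it (log2 fold -0.11), and its near-identical neighbour RBCS1 had 1701 and 1424 RPKM (-0.26). Rubisco activase (RCA1) had 274 and 205 RPKM (-0.42). The most abundant photorespiration gene, GCSH for the H protein of glycine cleavage, had 395 and 290 RPKM (-0.44). As deposited these abundant genes were slightly lower, but RBCS1 and RBCS2A turned to 0.05 and 0.16 under quantile scaling. Phosphoglycolate phosphatase (PGP1), the entry enzyme of photorespiration, had 49.5 and 51.1 RPKM (0.05). SHMT1, a serine hydroxymethyltransferase gene, had 141 and 181 RPKM (0.36).

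Both genes past 2-fold in this list, FEA1 and RHP1, are described in the table as more highly expressed in high CO2. FEA1, a periplasmic protein gene that is also induced by iron deficiency, was at 11.0 RPKM with phosphate and 0.318 RPKM without it (log2 fold -3.19). The size of this fold depends on the pseudocount, with -1.59 at 5 RPKM and -4.73 at 0.1 RPKM. RHP1, coding for an Rh protein thought to serve as a CO2 channel, had 9.91 and 4.02 RPKM (-1.12), and -0.73 with a pseudocount of 5 RPKM. The plasma membrane proton ATPase genes PMH1, with 135 and 262 RPKM (0.95), and PMA2, with 87.1 and 160 RPKM (0.87), lay near 2-fold on the higher side. PMH1 passed 2-fold under sum scaling (1.03).

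**Figure D5:**
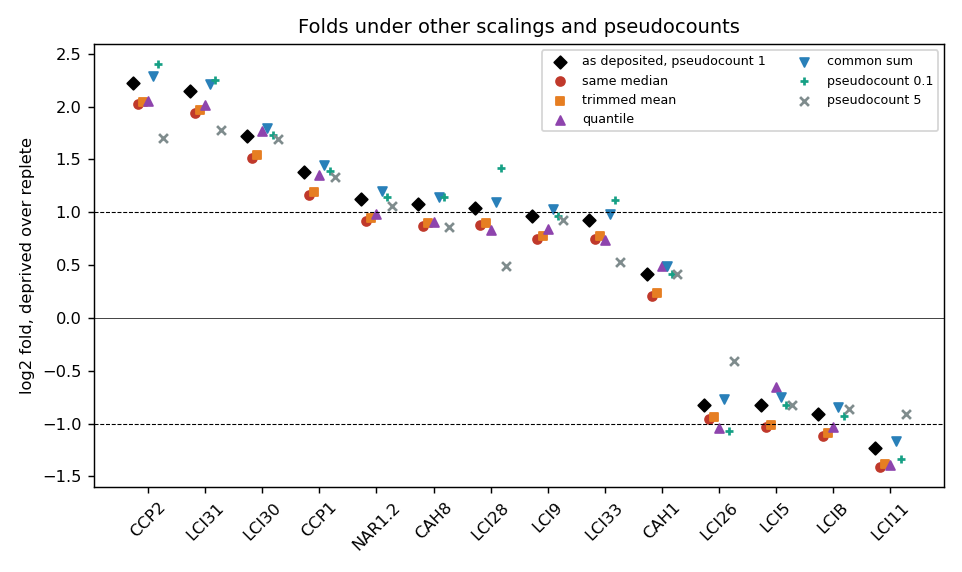
Log2 fold of the deprived over the replete library for 14 members under 7 settings of scaling and pseudocount, with dashed lines at 2-fold. CCP2, LCI31, LCI30 and CCP1 stay above the upper line in all 7, and NAR1.2, CAH8, LCI28, LCI9 and LCI33 cross it. LCI5, LCIB and LCI26 cross the lower line under some, and LCI11 lies below it except with a pseudocount of 5 RPKM.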

How the data were processed

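RNA sequencing libraries of a phosphate-replete and a phosphate-deprived culture were compared, 1 per condition. The authors deposited RPKM values for 17147 loci, and the table columns were matched to the libraries by the codes in the labels. The aligner Bowtie is listed without a version, per the submitters' processing notes. The sources used here do not give the counting method, genome build, annotation version, strand use or filters, so coordinates are left out.

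No value was 0. A deprived to replete ratio of 0.870 was shared by 1252 loci (relative tolerance 0.0001), which has the pattern of 2 added counts per library; depth and the reads behind low values were inferred from it. No source states this step.

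Folds used a pseudocount of 1 RPKM and a mean of at least 1 RPKM. Differences of at least 2-fold were counted by size, with no p-value. Alternatives were pseudocounts of 0.1 and 5 RPKM, 4 scalings (the trimmed mean left out 30% by log ratio and 5% by mean level at each end), no filter and a mean of at least 5 RPKM. The absence of a pseudocount and the removal of CCPR1 were added after the values were seen. All members are named, and of the other listed genes those at least 2-fold different, the most abundant and a few named by role after their values were seen. Members and lists were chosen with earlier results of these data known. Calculations used Python 3.11.15 with numpy 2.4.6 and pandas 2.3.3. The scalings and folds were run on simulated data with changes well beyond 2-fold, placed only in genes of higher level. Changes near 2-fold, changes in low-level genes, the inferred reads and the counting intervals were not covered by it.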

Additional observations from a re-analysis of the deposited data

How the results depend on the processing

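With 1 library per condition, no replicate could be left out. No paired analysis was possible because each condition had 1 library and the results come from no test. The 7 members higher by 2-fold or more became 4 under median scaling, under trimmed-mean scaling and under quantile scaling, where NAR1.2, CAH8 and LCI28 moved inside 2-fold. Of all genes, 3.67%, 3.77% and 3.69% were higher by 2-fold or more under these, in that order. The 1 member lower by 2-fold or more became 3 under these same scalings, 2 with a pseudocount of 0.1 RPKM and with no pseudocount, and 0 with a pseudocount of 5 RPKM. The share of all genes that were lower was 3.14%, 2.91% and 2.85% under the scalings. It was 2.45% with a pseudocount of 0.1 RPKM, 2.57% with none and 0.83% with 5 RPKM. The median log2 fold of the members, 0.28, was 0.068 under median scaling, 0.095 under trimmed-mean scaling and 0.309 under quantile scaling. The median of all genes, 0.14 as deposited, was -0.027, -0.006 and -0.033 under these, in that order. The cause was not tested. No member that was at least 2-fold different as deposited changed sign under any of the 4 scalings. Median, trimmed-mean and sum scaling apply a common factor, too small here to reverse a 2-fold difference. For these members a change of sign was therefore possible under quantile scaling only. The alternatives other than the 4 scalings cannot change a sign. Members inside 2-fold that changed sign numbered 8 under median scaling and under trimmed-mean scaling, 5 under quantile scaling and 2 under sum scaling. Depth limits LCI21, LCI26, LCI28, LCI33, NAR1.1 and NAR1.4 most, and LCIE and NAR1.6 rest on few or no reads.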

Other observations

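Some genes outside the members are described in the table as low-CO2 inducible under other symbols, and 10 were found by that text after the values were seen. Of these, 2 were higher by 2-fold or more in the deprived library and 0 lower, and the median log2 fold was 0.35, beside 5.59% of all genes higher by 2-fold or more and a median of 0.14. LHCSR1, a stress-related chlorophyll-binding protein gene of photoprotection, was at 34.0 RPKM with phosphate and 179 RPKM without it (log2 fold 2.36). The early light-inducible gene ELI4 had 8.25 and 32.2 RPKM (1.85). The others lay within 2-fold. TEF19, a gene for a conserved protein with a proposed chloroplast location, had 5.63 and 9.29 RPKM (0.63), and NDA3, an alternative mitochondrial NADH dehydrogenase gene, had 61.8 and 78.0 RPKM (0.33). DNJ25, a DnaJ-like protein gene, had 11.3 and 13.9 RPKM (0.27), and the nucleoredoxin gene NRX1 had 19.3 and 22.5 RPKM (0.21). OHP1, a one-helix stress protein gene, had 142 and 129 RPKM (-0.14), and the geranylgeranyl diphosphate synthase gene GGPS had 120 and 84.1 RPKM (-0.51).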
